A study of Mus musculus with 2 samples.

Results

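Transcript levels of 31 interferon-response genes were examined, class by class, in 2 libraries of single cells from the spinal cord of mice. The genes were taken by their symbols, and all 31 were found in both deposited tables, among 22480 genes. The control library came from sham animals and the other from mice taken 3 days after injury (3 dpi). Tissue of 5 males and 5 females, all C57BL/6 and 8 weeks old, was pooled for each, as 8 mm of cord around the lesion position. Cells were captured with 10X Chromium 3′ chemistry, version 3. No genetic change and no drug is named for either group, and what kind of injury was made is not stated in the labels. Each group was 1 library, so no test was made and no value has a replicate error. Injury and the batch of the library cannot be told apart.

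The sham library held 76889038 unique molecular identifiers (UMIs, counts of single captured transcripts) in 10138 barcodes, and the 3 dpi library held 149291783 in 13594 barcodes. Filters and a doublet caller left 9306 cells in sham and 12108 at 3 dpi. The libraries shared 39 barcodes, 0.385% of those in sham. Cells were clustered without the 31 genes and the listed other genes of the pathway, and clusters were named from fixed markers. An endothelial-like cell is thus a cell whose cluster carried endothelial markers. A cluster with at least 3 of the 31 genes among its 10 leading genes was left unnamed. Levels are the UMIs of a gene summed over a class, scaled to 1000000 UMIs for the class in that library (CPM), and brackets hold 95% intervals for counting error alone, without the spread between cells, mice or libraries.

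Interferons are secreted proteins that warn cells of infection or damage. Type I interferons (such as interferon beta) signal through the receptor chains Ifnar1 and Ifnar2 to the kinases Jak1 and Tyk2, and these activate a complex that includes Stat2 and Irf9. That complex binds a DNA element, the interferon-stimulated response element (ISRE), at genes such as Isg15 and the Ifit family. Interferon gamma signals through Ifngr1 and Ifngr2 and acts at gamma-activated sites (GAS) of genes such as Irf1 and the guanylate-binding proteins (Gbp). In the nervous system, microglia and endothelial cells are known to respond to interferons.

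Promoter sequences of the members come first, since they carry the elements just named. RefSeq windows (GRCm38.p6) from 250 bases before to 50 bases after a transcription start were matched by symbol for 25 of the 31 members, all but Usp18, Ifi27l2a, Ifi204, Rtp4, Parp14 and Zbp1. An ISRE motif was searched as GAAA, 2 bases of any kind and GAAA again, on both strands. It was present in 16 of the 25 members (64.0%) and in 3.99% of all 27025 genes with a window of this length. A GAS motif, TTCNNNGAA on both strands, was present in 8 of 25 members (32.0%) and in 9.55% of all genes. The motifs can overlap: in Bst2 the last 3 bases of the GAS match are also the first of an ISRE match. A match describes letters and does not show binding.

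The stretches below lie upstream of the start, read 5′ to 3′ on the strand of the gene, with ISRE matches in capitals. Isg15, Ifit1, Irgm1 and Gbp3 are shown because their levels were lower in endothelial-like cells at 3 dpi, and Bst2 and Ifitm2 because theirs were higher in glial classes. Only members with an ISRE match upstream of the start could be shown, so its presence in both sets was fixed by this choice. Ifit2 and Ifi35, also called lower in endothelial-like cells, held a GAS match and no ISRE match in their windows.
Isg15 (chr4:156200857-156200916, minus strand): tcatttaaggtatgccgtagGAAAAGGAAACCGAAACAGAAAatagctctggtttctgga
Ifit1 (chr19:34640765-34640824, plus strand): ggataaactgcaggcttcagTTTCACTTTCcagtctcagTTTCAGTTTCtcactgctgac
Irgm1 (chr11:48871421-48871470, minus strand): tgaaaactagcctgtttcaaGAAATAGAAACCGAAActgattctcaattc
Gbp3 (chr3:142559979-142560038, plus strand): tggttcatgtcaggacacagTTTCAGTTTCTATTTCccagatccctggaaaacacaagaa
Bst2 (chr8:71537563-71537622, minus strand): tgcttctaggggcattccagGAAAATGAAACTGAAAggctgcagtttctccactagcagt
Ifitm2 (chr7:140955968-140956027, minus strand): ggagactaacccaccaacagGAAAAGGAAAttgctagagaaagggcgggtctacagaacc

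The Isg15 stretch held 3 overlapping matches that began 78, 72 and 66 bases before the start. Ifit1 held 2 separate matches, 104 and 85 bases before its start, both on the opposite strand. Ifitm2 held 1 match, 46 bases before its start. Among the 15 members called the inducible core here (Isg15, Ifit1, Ifit2, Ifit3, Irf7, Oasl2, Oas1a, Usp18, Rsad2, Rtp4, Ifi44, Ifi204, Xaf1, Zbp1 and Ifih1), 6 of 11 matched genes held the ISRE motif, and among the other members 10 of 14 did.

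In sham cord, endothelial-like cells, which line the vessels, carried the highest level of 23 of the 31 members among the 6 named classes with at least 50 cells. Border-associated macrophage-like cells, the phagocytes of meninges and vessel sheaths, were highest for 7 and microglia-like cells for 1, Irf1. These counts stand without the share of all genes highest in each class. The summed level of the 15 core members was 1447 CPM [1416 to 1479] in endothelial-like cells and 452 CPM [361 to 560.1] in border-associated macrophage-like cells. It was 159 CPM [136 to 184] in pericyte-like cells, 136 CPM [128 to 143] in microglia-like cells, 76.2 CPM [73.6 to 78.9] in oligodendrocyte-like cells and 53.7 CPM [44.7 to 63.9] in precursor-like cells. The core was thus at its highest in the vessel lining and at its lowest in the oligodendrocyte lineage.

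Single core genes departed from this order in sham in many cases. Ifit2 and Ifi204 were highest in border-associated macrophage-like cells, at 37.7 and 162 CPM, with 27.8 and 0.699 CPM in endothelial-like cells. Isg15, a ubiquitin-like protein that is attached to other proteins, was at 182 CPM in endothelial-like, 13.4 in microglia-like, 6.47 in pericyte-like and 0.255 in oligodendrocyte-like cells. Ifit1, which binds foreign RNA caps, was at 203 CPM in endothelial-like cells and at 3.70 CPM or less in every other named class. Xaf1, a proapoptotic interferon-induced protein, departed from the order: it was at 141 CPM in endothelial-like cells and 52.6 CPM [50.4 to 54.8] in oligodendrocyte-like cells, above the 19.4 CPM of microglia-like cells. Most of the core sum of sham oligodendrocyte-like cells was therefore this gene.

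The membrane proteins Ifitm2 and Ifitm3, which block the entry of viruses, and Bst2, which tethers virus particles to the cell, had another distribution in sham. Ifitm3 was at 2264 CPM in endothelial-like, 1610.2 CPM in border-associated macrophage-like and 943 CPM in pericyte-like cells, against 38.0 CPM in microglia-like and 8.52 CPM in oligodendrocyte-like cells. Ifitm2 was at 573, 824 and 768 CPM in the first 3 of these classes and at 6.32 CPM in microglia-like cells. Bst2 was highest in border-associated macrophage-like cells (808 CPM), and it reached 171 CPM in microglia-like cells. Reads of Ifitm2 and Ifitm3, Ifit3 and its copy Ifit3b, Oas1a and its relatives, the Gbp genes and the Ifi204 family can be shared between near-identical copies, so the split between such genes is uncertain.

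**Figure D1:**
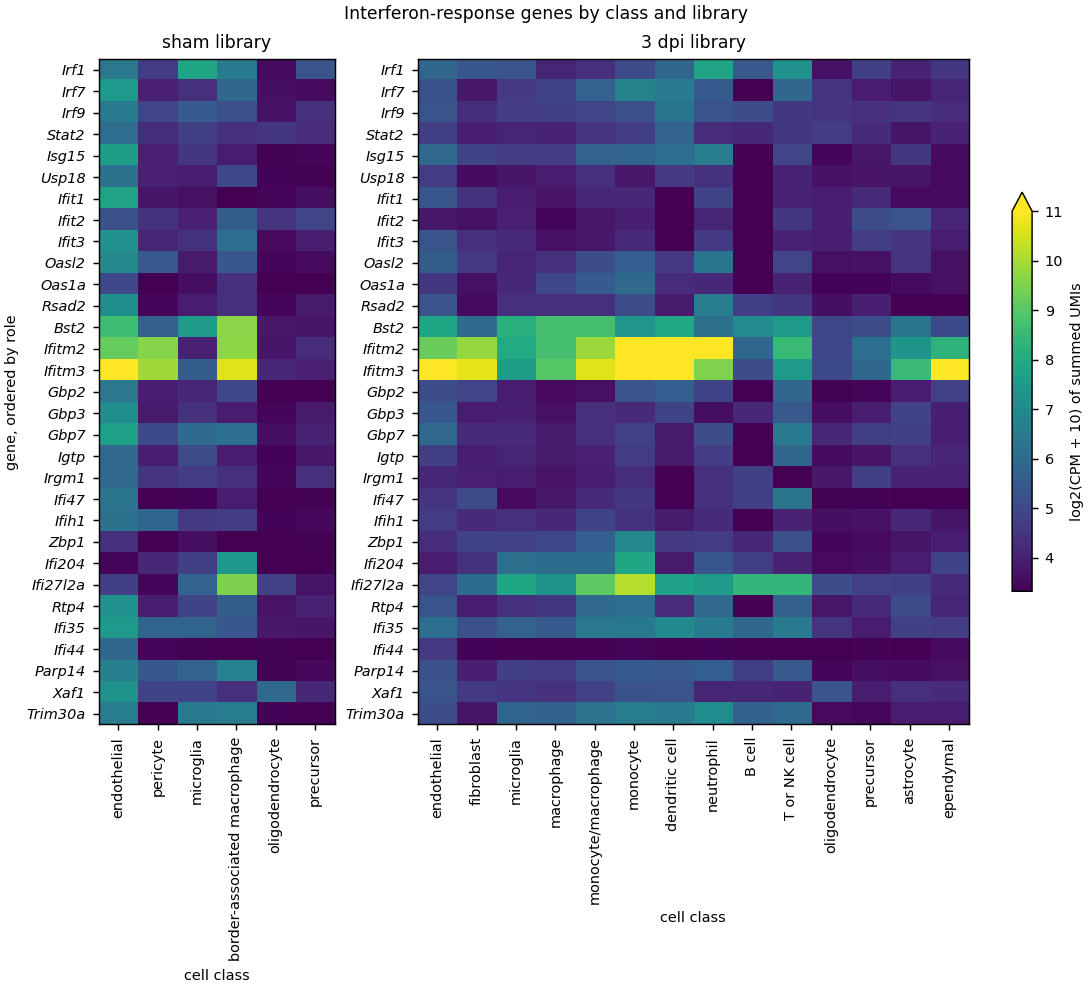
Level of the 31 genes (rows, ordered by role) in each named class (columns) of the sham and the 3 dpi library, as log2 of CPM + 10 of the summed UMIs, with colours capped at 11. In sham the endothelial-like column is brightest for most rows, and at 3 dpi the monocyte-like column is bright for Ifitm2, Ifitm3 and Ifi27l2a; the dendritic cell-like column rests on 40 cells.

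At 3 dpi no single class held most of the maxima. Among 13 named classes with at least 50 cells, monocyte-like and neutrophil-like cells were each highest for 7 members and endothelial-like and T or NK cell-like cells each for 6. Here too the share of all genes highest in each class is not given. The core sum was 717 CPM [670 to 767] in monocyte-like, 451 CPM [420 to 483] in neutrophil-like, 346 CPM [332 to 359] in endothelial-like, 199.6 CPM [194 to 205] in macrophage-like and 194 CPM [189 to 199.6] in microglia-like cells. It was 131 CPM in fibroblast-like, 129 CPM in astrocyte-like, 93.8 CPM in precursor-like, 78.0 CPM in ependymal-like and 77.4 CPM in oligodendrocyte-like cells. Dendritic cell-like cells numbered 40 and had 242 CPM [180 to 319]. Sham held too few of the leukocyte classes to compare: 0 macrophage-like, 7 monocyte-like, 15 neutrophil-like and 0 dendritic cell-like cells.

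Different members led in the different leukocyte classes of the 3 dpi library. Monocyte-like cells (323 cells) had 1126.5 CPM of Ifi27l2a, a small mitochondrial membrane protein, 218 CPM of Ifi204, a DNA-binding protein of the Ifi200 family, and 112 CPM of Zbp1, a sensor of left-handed nucleic acids. Ifi27l2a was at 146 CPM and Zbp1 at 21.01 CPM in macrophage-like cells (2850 cells). Neutrophil-like cells (1472 cells) had the highest level among the 13 classes of Isg15 (83.2 CPM), of Rsad2, the antiviral radical enzyme viperin (85.5 CPM), of Irf1, a transcription factor (216 CPM), and of Trim30a, a ubiquitin ligase of the Trim family (124 CPM). In monocyte-like cells these stood at 45.6, 25.3, 23.6 and 85.2 CPM. T or NK cell-like cells (77 cells) were highest for Gbp7, at 81.9 CPM, which rested on few UMIs.

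For the difference between the libraries, 4 classes had at least 50 cells in both: endothelial-like, microglia-like, oligodendrocyte-like and precursor-like cells. A gene was called measured if either library reached 20 CPM, and was called higher or lower when the ratio reached 2-fold with 10 CPM added to both libraries; this is a rule of size, not a test, and log2 ratios below are on that scale. Within each of these classes, different clusters held most cells of the 2 libraries. Sham endothelial-like cells lay mainly in clusters 6 (1166 cells) and 25 (231 cells) and those of 3 dpi in cluster 19 (379 cells). Sham microglia-like cells lay mainly in cluster 0 and those of 3 dpi in clusters 7 and 8. Oligodendrocyte-like cells lay in clusters 2, 3, 10 and 14 in sham and 9 and 11 at 3 dpi, and precursor-like cells mainly in cluster 22 in sham and 13 and 17 at 3 dpi. The markers of each class were present in each library at their class, though in microglia-like cells the microglia list summed to 24786 CPM in sham and 7807 CPM at 3 dpi.

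In endothelial-like cells (1399 in sham, 406 at 3 dpi) most of the interferon-response genes were lower at 3 dpi. Of 29 measured members, 23 were at least 2-fold lower, where 13.7% of the 7045 genes measured in this class were, and 0 were at least 2-fold higher, where 8.37% of all measured genes were. Of those called lower, Ifit2, Usp18, Stat2, Ifi44, Ifi47, Igtp, Irgm1 and Ifih1 reached 20 CPM only in sham, so they could not have been called higher. The other members called lower reached 20 CPM in both libraries. The median log2 ratio was -1.45 over the 29 members and -0.26 over all measured genes. The core sum was 4.19-fold [4.004 to 4.38] lower, from 1447 to 346 CPM. The members outside the core fell less as a sum, by 1.35-fold [1.32 to 1.37], and Ifitm3 and Ifitm2 made up most of it.

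The transcription factors of the pathway showed the same direction. Irf7, which drives the amplifying loop of type I interferon, was at 166 CPM in sham and 28.0 CPM at 3 dpi, a log2 ratio of -2.21. Stat2 was at 57.7 and 16.6 CPM (log2 ratio -1.35) and its partner Irf9 at 79.9 and 30.04 CPM (-1.17). Irf1, which answers mainly to interferon gamma, was at 74.5 and 47.7 CPM and stayed within 2-fold (-0.55). So 3 of the 4 factors were called lower.

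Isg15 was at 182 CPM in sham and 51.4 CPM at 3 dpi (log2 ratio -1.65), and Usp18, the protease that removes it, at 63.6 and 15.4 CPM (-1.54). Ifit1 was at 203 and 31.9 CPM (-2.34), the lowest ratio of the 29. Ifit2 and Ifit3, of the same family, were at 27.8 and 4.08 CPM (-1.42) and at 136 and 29.8 CPM (-1.88). Ifit1, Ifit2 and Ifit3 thus had the same direction. Rsad2 was at 131 and 29.4 CPM (-1.84) and Oasl2, a relative of the RNA-sensing oligoadenylate synthetases, at 111 and 37.7 CPM (-1.35). Oas1a, a synthetase itself, was at 22.2 and 13.6 CPM (-0.45) and did not reach 2-fold.

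All 6 interferon-inducible GTPases, which take part in defence against intracellular pathogens, were called lower in endothelial-like cells. Gbp7 was at 195 CPM in sham and 52.1 CPM at 3 dpi (log2 ratio -1.72), Gbp3 at 125 and 32.8 CPM (-1.66) and Gbp2 at 73.6 and 24.9 CPM (-1.26). The immunity-related GTPases behaved alike in direction: Irgm1 was at 51.7 and 8.02 CPM (-1.78), Ifi47 at 67.8 and 12.1 CPM (-1.82) and Igtp at 52.6 and 17.1 CPM (-1.21). Among the sensors, Ifih1, which detects long double-stranded RNA, was at 63.3 and 15.9 CPM (-1.50), while Zbp1 and Ifi204 were under 20 CPM in both libraries. Of the 7 remaining members, Rtp4, a receptor chaperone, Ifi35, Ifi44, Parp14, Xaf1 and Trim30a were called lower, with log2 ratios from -1.34 (Ifi44) to -1.91 (Xaf1).

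The 3 membrane restriction factors did not follow. Ifitm3 was at 2264 CPM in sham and 2047 CPM at 3 dpi (log2 ratio -0.14), and Ifitm2 at 573 and 598 CPM (0.06). Bst2 was at 386 and 219.5 CPM (-0.79), and Ifi27l2a at 17.3 and 20.1 CPM (0.14). None of these 4 reached 2-fold in endothelial-like cells, and with median-of-ratios scaling the ratio of Ifitm3 changed sign to 0.07, as it did to 0.20 with doublets kept and to 0.19 in male-derived cells.

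**Figure D2:**
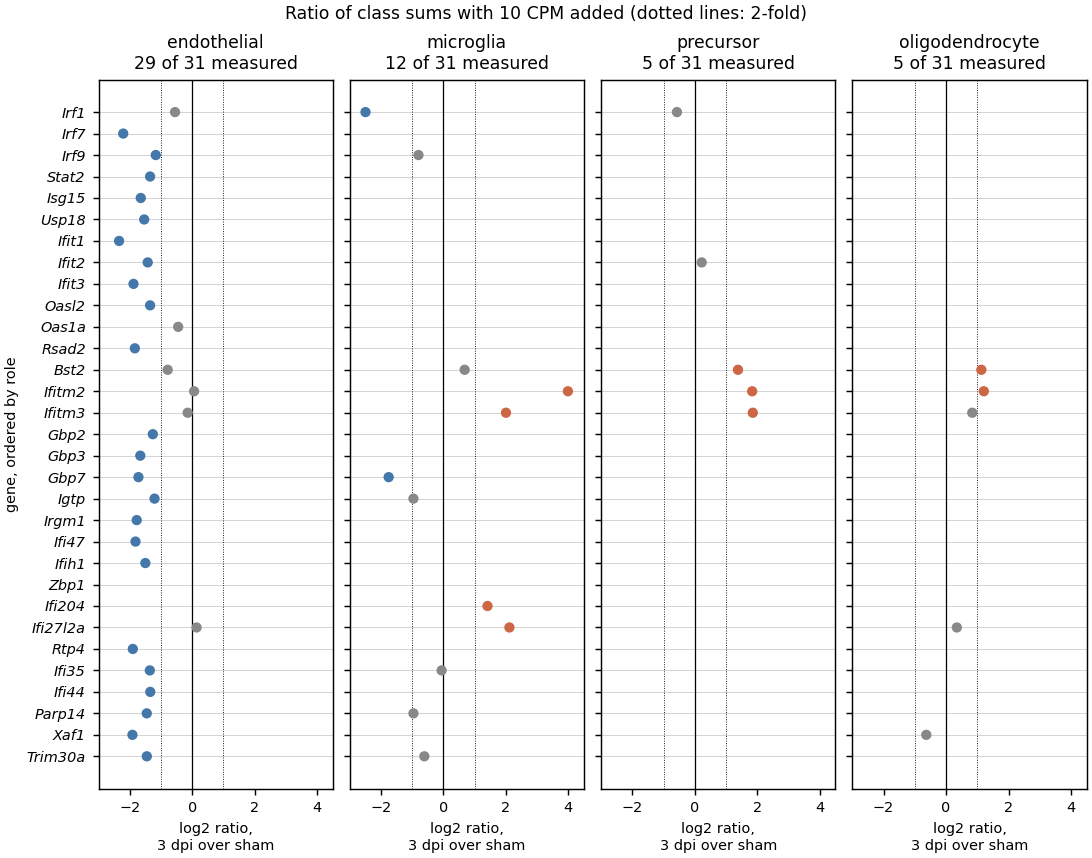
Log2 ratio (3 dpi to sham, 10 CPM added to each) for each measured member (rows, ordered by role) in the 4 classes compared; dotted lines mark 2-fold, and colours mark members called higher (orange), lower (blue) or within 2-fold (grey). In endothelial-like cells 23 of 29 points lie left of the lower line and in the other classes most points right of the upper line are Ifitm2, Ifitm3 and Bst2.

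Several measured facts moved with this difference. The summed level of the 12 endothelial markers was 3.18-fold lower at 3 dpi in endothelial-like cells, from 29018 to 9137 CPM, with 10 of the 12 lower. The microglia list there summed to 2650.0 CPM in sham and 4576 CPM at 3 dpi, with 4 of its 12 markers higher. The monocyte/macrophage list summed to 769.8 and 1534 CPM, with 10 of 10 higher and Ccr2 and F13a1 at 0 in sham. The immediate early genes Fos and Jun, which tissue dissociation is known to induce, were at 2547 and 4509 CPM in sham and 1323 and 1027 CPM at 3 dpi. The median depth was 3213 UMIs per cell in sham and 14084.5 at 3 dpi. The part of these in the result was not tested.

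Values within ranges of depth were as follows. The core sum of endothelial-like cells with 2000 to 5000 UMIs was 1570.1 CPM [1522 to 1619] in sham (815 cells) and 485 CPM [390 to 597] at 3 dpi (55 cells). With 5000 to 10000 UMIs it was 1394 CPM [1342 to 1448] in 291 cells and 480.2 CPM [426 to 539.8] in 81 cells. From 10000 UMIs it was 1207 CPM in 65 cells and 328 CPM in 242 cells. Sham was higher in each of these ranges. By cluster, in cluster 6 the core sum was 1308 CPM [1275 to 1341] in sham and 876 CPM [694 to 1092] in the 21 cells of 3 dpi, and in cluster 25 it was 2061 CPM [1976 to 2149] in sham and 2282 CPM [1765 to 2903] in the 6 cells of 3 dpi. The share of thinned cells with at least 2 core members was 32.8% in sham and 5.26% (1 of 19) at 3 dpi in cluster 6, and 50.7% and 66.7% (4 of 6) in cluster 25. Cluster 19, which held 379 of the 406 cells of 3 dpi, stood at 331 CPM [318 to 345] and 5.66%. Its Cldn5, a tight junction protein of the endothelium, was at 2681 CPM, and at 9182 CPM in sham cells of cluster 6. The comparisons by depth and by cluster were added after the data had been seen.

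**Figure D3:**
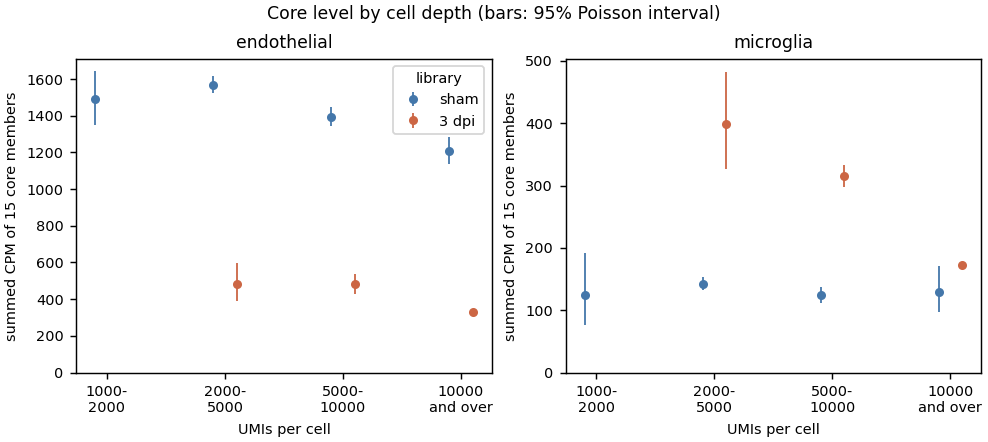
Summed CPM of the 15 core members in endothelial-like and microglia-like cells, by UMIs per cell and library, with 95% Poisson intervals. Sham endothelial-like cells lie above those of 3 dpi in each shared depth range. The microglia-like order is the opposite, with intervals that overlap from 10000 UMIs, where sham has 32 cells.

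In microglia-like cells (2175 in sham, 2033 at 3 dpi) some members were called higher and some lower at 3 dpi. Of 12 measured members 4 were at least 2-fold higher at 3 dpi, where 12.1% of the 6242 measured genes were, and 2 were at least 2-fold lower, where 15.1% were. The count called lower is thus near the share over all measured genes. The median log2 ratio of the 12 was -0.34, beside -0.11 over all measured genes.

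The members called higher were Ifitm2, Ifitm3, Ifi27l2a and Ifi204. Ifitm2 and Ifi204 reached 20 CPM only at 3 dpi, so they could not have been called lower. Ifitm2 had a sham level of 6.32 CPM [4.79 to 8.19] and a 3 dpi level of 248 CPM [243 to 254], a 39.3-fold [30.3 to 52.0] higher level and a log2 ratio of 3.99. Ifitm3 was at 38.0 and 182 CPM (log2 ratio 2.001) and Ifi27l2a at 43.7 and 222 CPM (2.11). An Ifitm2 UMI was seen in 2.44% of sham and 86.1% of 3 dpi cells before thinning. Ifi204 was at 16.6 and 60.7 CPM (1.41), and Bst2, at 171 and 280.2 CPM (0.68), stayed within 2-fold.

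The members called lower in microglia-like cells were Irf1, with 222 CPM [213 to 232] in sham against 31.1 CPM [29.1 to 33.2] at 3 dpi (log2 ratio -2.50), and Gbp7, at 54.3 and 9.04 CPM (-1.76). Gbp7 reached 20 CPM only in sham, so it could not have been called higher. Igtp was at 24.2 and 7.52 CPM (-0.96), Parp14, an ADP-ribosyl transferase, at 43.8 and 17.6 CPM (-0.96), and Irf9 at 36.2 and 16.5 CPM (-0.80), all within 2-fold. With 1 CPM in place of 10 CPM added, 5 members were called lower. Immediate early genes moved with Irf1 in microglia-like cells too: Fos was at 4180.4 CPM in sham and 632 CPM at 3 dpi and Jun at 7707 and 481 CPM. Their part in the level of Irf1 was not tested.

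Ifi35 was almost equal in microglia-like cells of both libraries, at 45.0 and 42.8 CPM (log2 ratio -0.06), and Trim30a was at 75.4 and 45.8 CPM (-0.61). The remaining 19 members, among them Isg15 (13.4 and 15.9 CPM), Ifit1 (2.77 and 4.94 CPM), Irf7 (10.97 and 14.3 CPM) and Rsad2 (5.21 and 10.9 CPM), were under 20 CPM in both libraries. Zbp1, at 2.33 and 17.9 CPM (log2 ratio 1.18), and Oas1a, at 2.11 and 8.56 CPM (0.62), were also among them. Over all 31 members the interval of the ratio lay above 1 for 12 and below 1 for 14. The core sum of microglia-like cells was 1.43-fold [1.35 to 1.53] higher at 3 dpi, from 136 to 194 CPM. Ifi204 was 16.6 and 60.7 CPM of it and Zbp1 2.33 and 17.9 CPM. Monocyte/macrophage markers summed to 367 CPM in sham and 5012 CPM at 3 dpi in these cells, with 10 of 10 higher and F10 at 0 in sham, and their part was not tested. By depth, the core sum was 143 CPM in 1527 sham cells and 399 CPM in 74 cells of 3 dpi with 2000 to 5000 UMIs. It was 124 CPM in 429 and 316 CPM in 507 cells with 5000 to 10000 UMIs. Above 10000 UMIs, where 1437 of the 3 dpi cells lay, it was 129.9 CPM [96.7 to 171] in 32 sham cells and 173 CPM [167 to 178] at 3 dpi.

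In oligodendrocyte-like cells (4333 in sham, 1460 at 3 dpi), the myelin-forming cells, 5 members were measured. Of these, 2 were at least 2-fold higher, where 4.79% of the 6248 measured genes were, and 0 were at least 2-fold lower, where 3.86% were. Bst2 was at 4.47 CPM in sham and 21.6 CPM at 3 dpi (log2 ratio 1.13) and Ifitm2 at 3.57 and 21.3 CPM (1.21). Both reached 20 CPM only at 3 dpi, so they could not have been called lower. Ifitm3, at 8.52 and 23.1 CPM (0.84), and Ifi27l2a, at 17.8 and 25.3 CPM (0.34), stayed within 2-fold, as did Xaf1, at 52.6 and 30.3 CPM (-0.63). The core sum was the same within its counting error, 76.2 CPM in sham and 77.4 CPM at 3 dpi, a 1.02-fold [0.952 to 1.08] ratio. This sum joined opposite moves. Xaf1, its largest part, was lower at 3 dpi, as was Ifit2, at 12.09 and 5.98 CPM, while Irf7, Ifit1 and Usp18 were among those higher. Over all 31 members the interval of the ratio lay above 1 for 25 and below 1 for 2, Xaf1 and Ifit2. Most of the 31 were under 20 CPM in both libraries.

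In precursor-like cells (352 in sham, 881 at 3 dpi), the cells that give rise to oligodendrocytes, 3 of 5 measured members were at least 2-fold higher, where 7.96% of the 8032 measured genes were, and 0 were at least 2-fold lower, where 13.3% were. Ifitm3 was at 6.34 CPM in sham and 49.2 CPM at 3 dpi (log2 ratio 1.86), Ifitm2 at 9.72 and 60.5 CPM (1.84) and Bst2 at 3.80 and 26.0 CPM (1.38). All 3 reached 20 CPM only at 3 dpi, so they could not have been called lower. Ifit2, at 20.3 and 25.3 CPM, and Irf1, at 30.9 and 17.5 CPM, were within 2-fold. In sham 5 members, Oas1a, Ifi204, Ifi44, Gbp2 and Trim30a, had 0 UMIs in precursor-like cells. The core sum was 1.75-fold [1.45 to 2.12] higher at 3 dpi, from 53.7 to 93.8 CPM.

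These levels in the oligodendrocyte lineage were low and moved with genes of some other cells, while other marker lists were flat or fell. The monocyte/macrophage list was at 98.0 CPM in sham and 974 CPM at 3 dpi in oligodendrocyte-like cells, with 9 of 10 markers higher and none at 0, and at 65.9 and 705 CPM in precursor-like cells, with 9 of 10 higher and Ccr2 and F10 at 0 in sham. The neutrophil list was at 9.80 and 45.7 CPM in the former and at 4.65 and 94.5 CPM in the latter. The microglia list was at 340 and 372 CPM in the former and 948 and 945 CPM in the latter. The endothelial list was at 70.2 and 18.6 CPM and at 109 and 44.1 CPM. In precursor-like cells the oligodendrocyte list was at 18360 CPM in sham and 947 CPM at 3 dpi, with 10 of 10 markers lower. The part of these shifts in the result was not tested. When 5% of the UMIs of each class were subtracted as free RNA with the profile of the library, 0 members were called higher in oligodendrocyte-like and 1 in precursor-like cells. In oligodendrocyte-like cells of female origin 0 members were called higher as well.

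Across the 4 classes, Ifitm2 was called higher in 3 and Bst2 and Ifitm3 in 2 each, while Ifi27l2a and Ifi204 were higher in 1, microglia-like cells. Gbp7 was lower in 2 classes and 23 further members in 1. No member was called higher in 1 class and lower in another. Many members, among them Isg15, Ifit1 and Irf7, were measured only in endothelial-like cells and could not have been. Only Bst2, Ifitm2 and Ifitm3 were measured in every class, and Zbp1 was measured in none.

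Whether a cell carried several members at the same time was read from cells thinned to 1000 UMIs each, so that depth was equal. In sham, 962 of 1345 endothelial-like cells (71.5% [69.0 to 73.9]) held UMIs of at least 3 of the 31 members, and at 3 dpi 148 of 396 did (37.4% [32.6 to 42.3]). For at least 2 of the 15 core members the shares were 35.8% [33.2 to 38.4] and 6.57% [4.33 to 9.47]. Without thinning, 93.9% and 92.4% of cells held at least 3 members, at the median depths of 3213 and 14084.5 UMIs. These intervals are over cells of 1 library each and do not test a difference between the conditions.

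In microglia-like cells the order was the other way. At least 3 members were seen in 108 of 2095 sham cells (5.16% [4.25 to 6.19]) and in 288 of 2032 cells at 3 dpi (14.2% [12.7 to 15.8]). The core criterion was met by 1.34% [0.890 to 1.93] and 3.25% [2.52 to 4.11]. When Ifitm2, Ifitm3, Bst2 and Ifi27l2a were left out, a choice made after the data had been seen, the shares with at least 3 of the 27 others were 2.39% [1.78 to 3.13] and 2.46% [1.83 to 3.23]. Of the 4 genes left out, Ifitm2, Ifitm3 and Ifi27l2a were among those called higher in this class, so the step removes part of the difference by its choice. In endothelial-like cells the same step left 39.0% [36.3 to 41.6] in sham and 8.08% [5.59 to 11.2] at 3 dpi.

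Oligodendrocyte-like cells rarely met the criterion and serve as a low level for comparison: 0.117% [0.0379 to 0.272] of 4290 cells in sham and 0.755% [0.377 to 1.35] of 1457 cells at 3 dpi, at unthinned median depths of 7565 and 9138 UMIs. In precursor-like cells it was 0 of 346 in sham, which allows a share of up to 0.867%, and 12 of 876 (1.37% [0.710 to 2.38]) at 3 dpi. The unthinned shares were 7.99% and 25.9% in oligodendrocyte-like and 6.82% and 49.9% in precursor-like cells.

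Among leukocytes of the 3 dpi library, 247 of 320 monocyte-like cells (77.2% [72.2 to 81.7]) held at least 3 members, against 566 of 2838 macrophage-like cells (19.9% [18.5 to 21.5]). Neutrophil-like cells stood at 28.2% [25.1 to 31.4], but 667 of 1472 had under 1000 UMIs and were left out. Dendritic cell-like cells, with 16 of 40 (40.0% [24.9 to 56.7]), met the core criterion in 0 of 40, which allows a share of up to 7.50%. The core criterion was met by 15.6% [11.8 to 20.1] of monocyte-like, 6.09% [4.54 to 7.97] of neutrophil-like and 4.09% [3.39 to 4.88] of macrophage-like cells. Without Ifitm2, Ifitm3, Bst2 and Ifi27l2a the share of monocyte-like cells was 9.38% [6.41 to 13.1].

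In the other classes of the 3 dpi library the share was 17.8% [15.01 to 20.9] of 679 fibroblast-like cells, 16.4% [8.49 to 27.5] of 67 T or NK cell-like cells and 10.4% [4.59 to 19.4] of 77 ependymal-like cells. It was 7.41% [2.06 to 17.9] of 54 B cell-like cells and 2.63% [0.320 to 9.18] of 76 astrocyte-like cells. In sham, 29 of 51 border-associated macrophage-like cells (56.9% [42.2 to 70.7]) and 54 of 478 pericyte-like cells (11.3% [8.60 to 14.5]) met it. Some clusters stayed unnamed, among them cluster 20 of sham with endothelial and pericyte markers (63.5% of 334 cells), cluster L7 of 3 dpi led by MHC class II genes (61.0% of 231 cells) and cluster 12 of 3 dpi, with microglia and macrophage markers and high Hmox1 (8.09% of 556 cells).

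**Figure D4:**
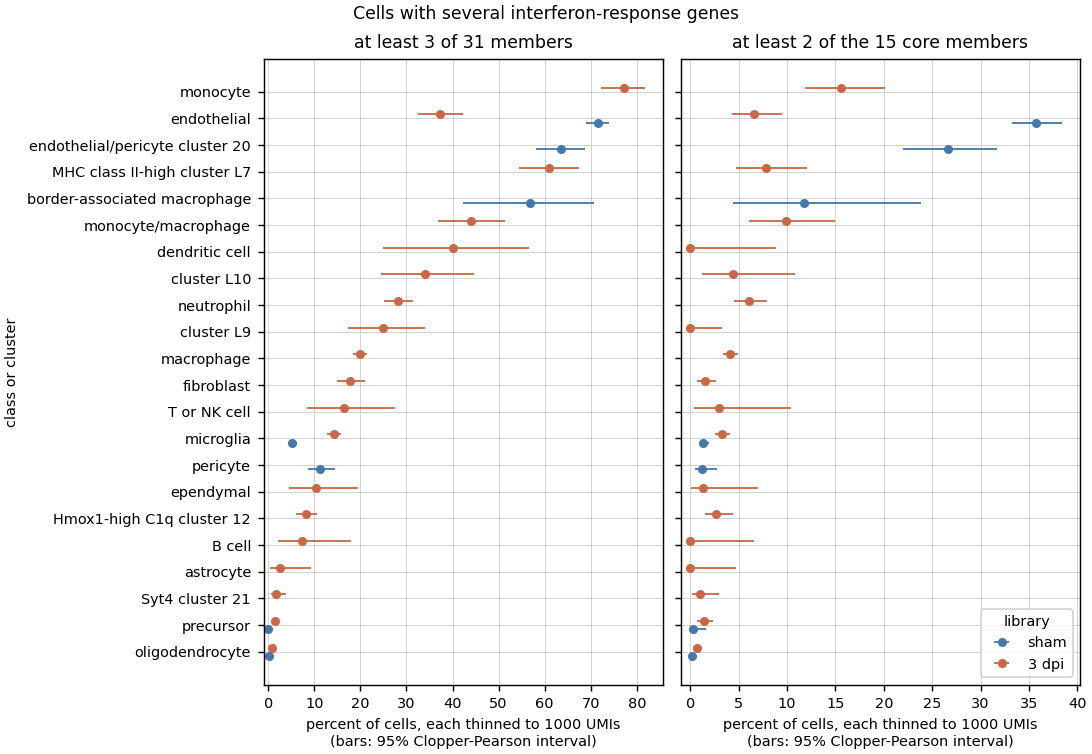
Percent of cells, each thinned to 1000 UMIs, with at least 3 of the 31 members (left) and at least 2 of the 15 core members (right), by class or unnamed cluster and library, with 95% Clopper-Pearson intervals. Endothelial-like cells fall from 71.5% in sham to 37.4% at 3 dpi in the left panel, and among named classes monocyte-like cells have the highest 3 dpi share, 77.2%. The unnamed sub-cluster L12, described below, is not shown.

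The core UMIs were spread unevenly over cells. In endothelial-like cells the 5% of cells with the most core UMIs held 21.9% of them in sham and 43.6% at 3 dpi, while these cells held 11.2% and 7.66% of all UMIs of the class. In neutrophil-like cells 5% of the cells held 65.5% of the core UMIs, and 79.5% of the cells had none at a median depth of 1033 UMIs. In macrophage-like cells the top 5% held 33.4% and in microglia-like cells 50.2% in sham and 38.1% at 3 dpi. In 1 fibroblast-like cell of 3 dpi there were 305 of the 1673 core UMIs of that class.

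In some classes 2 members, Isg15 and Ifit3, tended to be seen in the same cells. At 1000 UMIs, Ifit3 was seen in 43 of 223 Isg15-positive sham endothelial-like cells (19.3% [14.3 to 25.1]) and in 117 of the 1122 others (10.4% [8.70 to 12.4]). In macrophage-like cells of 3 dpi it was 3 of 45 (6.67% [1.40 to 18.3]) and 5 of 2793 (0.179% [0.0582 to 0.417]). In neutrophil-like cells it was 4 of 35 (11.4%) and 2 of 770 (0.260%), and in cluster L7 it was 7 of 10 (70.0%) and 1 of 221 (0.452%). Other classes of 3 dpi did not show it: Ifit3 was seen in 0 of 19 Isg15-positive and 3 of 301 other monocyte-like cells. In the mixed monocyte/macrophage-like class it was 0 of 11 and 1 of 182, and in precursor-like cells 0 of 6 and 18 of 870. These shares rest on few Isg15-positive cells outside sham endothelial-like cells, so a count of 0 does not show absence.

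The monocyte and macrophage clusters of 3 dpi were divided further, and their core sums differed. Macrophage-like sub-clusters ranged from 104 CPM [97.1 to 112] in L1 (656 cells, median 11779.5 UMIs) to 641 CPM [606 to 677] in L2 (430 cells, median 4481.5 UMIs). Monocyte-like sub-cluster L5 had 717 CPM at a median of 3759 UMIs and the mixed sub-cluster L8 had 369.7 CPM [339 to 403] at 6554 UMIs. L4, a macrophage-like sub-cluster of 5304.5 UMIs, had 184 CPM [166 to 203]. The part of depth in these differences was not tested.

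A sub-cluster of 30 cells at 3 dpi, L12, had interferon-response genes among its leading genes, although these genes were not used to form it. L12 was singled out after its values had been seen, so they are a description. Its 30 cells and 1582 core UMIs are in none of the named classes, whose levels and shares leave them out. Rsad2 was at 2062 CPM in L12 and 11.6 CPM in the 3368 other monocyte-like, macrophage-like and mixed cells of 3 dpi, Isg15 at 1266 and 17.9 CPM, and Irf7 at 1087 and 23.8 CPM. The members that differed least were Ifitm2, at 669.9 and 536 CPM, and Irf1, at 15.8 and 8.10 CPM from 3 UMIs, and neither reached 2-fold. Its cells held 4 to 14 core members each before thinning, with a median of 11 at a median depth of 4934 UMIs, against a median of 1 at 7357.5 UMIs in the other cells. Fcgr1, a high-affinity antibody receptor of monocytes, was at 1007 CPM, and the chemokine gene Cxcl10 at 607 CPM, which came from 6 of the 30 cells. Of its cells 13 had Xist and no Y-linked UMIs, 5 had Y-linked UMIs and no Xist, 1 had both and 11 had neither.

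Transcripts of interferons themselves were rare. Of 20 interferon genes in a fixed pathway list, 5 were in the tables and the other 15 were not analysed here. Ifnb1 had 11 UMIs in 9 of 9306 sham cells and 5 UMIs in 3 of 12108 cells at 3 dpi. Ifng had 25 UMIs in 7 cells in sham, 23 of them in 5 T or NK cell-like cells, and 6 UMIs in 5 cells at 3 dpi, 3 of them in 2 T or NK cell-like cells. Neither gene allows a comparison between the libraries at these counts.

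The receptors and signal proteins were measured more often. In endothelial-like cells 2 of 5 measured receptor genes were called lower and 1 higher, where 13.7% and 8.37% of all measured genes were: Ifnar2 was at 196 CPM in sham and 67.6 CPM at 3 dpi (log2 ratio -1.41), Il10rb, a chain shared with interferon lambda and interleukin 10 receptors, at 237 and 55.9 CPM (-1.91), and Ifngr2 at 18.7 and 56.1 CPM (1.20). Ifnar1 was at 168 and 94.9 CPM and Ifngr1 at 79.0 and 48.4 CPM, within 2-fold. Jak1 (91.6 and 101 CPM) and Stat3 (101 and 112 CPM) were within 2-fold, as were all 5 measured inhibitors. Tmem173, the adaptor of cytosolic DNA sensing also called STING, was at 6.47 and 54.0 CPM (1.96), and Irf8, a factor of the myeloid lineage, at 3.32 and 36.8 CPM (1.81).

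In microglia-like cells, where 15.1% of all measured genes were called lower, 1 of 5 measured receptors was, Ifngr1, at 569.8 CPM in sham and 105 CPM at 3 dpi (log2 ratio -2.34). Of 5 measured inhibitors Socs3, which blocks Jak kinases, was called lower, at 1512 and 356 CPM (-2.06). Of the sensors and adaptors 3 of 7 measured were lower, among them Tmem173 at 253 and 62.1 CPM (-1.87), and of 4 further interferon regulatory factors 3 were lower, with Irf8 at 577 and 273 CPM (-1.05).

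A list of 43 other interferon-induced genes, of which 42 were in the tables, covers genes outside the 31. It was drawn up with results of these data known and is no independent check. In endothelial-like cells 15 of 25 measured genes were called lower and 0 higher, where 13.7% and 8.37% of all measured genes were; their median was -1.09 on the log2 scale, beside -1.45 for the members. Slfn5 was at 369.9 CPM in sham and 93.1 CPM at 3 dpi (-1.88), Iigp1, an immunity-related GTPase, at 101 and 20.9 CPM (-1.84), and B2m, the light chain of MHC class I, at 939 and 426 CPM (-1.12). In microglia-like cells 2 of 17 were called higher, Cxcl10 (112 and 377 CPM, 1.66) and Ifi207 (3.44 and 74.3 CPM, 2.65), and 3 lower, Slfn8, Ly6e and B2m, where 12.1% and 15.1% of all measured genes were, so these counts are near the background. In oligodendrocyte-like cells the 1 measured gene, B2m, was called higher, at 37.7 and 102 CPM (1.23), where 4.79% of all measured genes were. In precursor-like cells 1 of 6 was, where 7.96% of all were: Eif2ak2, the RNA-dependent kinase, at 5.49 and 23.6 CPM (1.12).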

How the data were processed

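Single-cell libraries of sham and 3 dpi spinal cord were analysed. The deposited tables hold raw UMI counts per gene and barcode; the submitters' processing notes name Cell Ranger, Seurat and GRCh38, a human build, although the symbols are mouse symbols, so no gene positions were taken from the tables. No mitochondrial genes are listed, so that share could not be used as a filter. No label says which barcodes the authors kept before deposit.

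Barcodes needed at least 200 genes and 500 UMIs, and barcodes nearest to simulated doublets (0.8% per 1000 cells) were removed, 820 in sham and 1476 at 3 dpi. After scaling each cell to 10000 counts and taking logs, both libraries were clustered together on 2000 variable genes. Members, listed pathway genes, ribosomal genes and sex-linked genes were left out of these. The settings were 30 principal components, 15 neighbours and the Leiden method at resolution 1.0. Clusters took the class with the highest mean marker fold, needing at least 3 markers raised 2-fold and present in 10% of cells. They stayed unnamed when another class with many of its markers raised lay within 1 log2 unit. They also stayed unnamed when at least 3 members were among their 10 leading genes. By this rule the genes under study could decide which cells entered a class. These naming thresholds, the division of monocyte and macrophage clusters and the separate treatment of sub-cluster L12 were decided with the data in view. Summed counts carry exact Poisson intervals, ratios exact conditional intervals and shares Clopper-Pearson intervals, all at 95%. UMIs within a cell are not independent, so the first 2 kinds are too narrow. The limit given beside a share of 0 cells is that of 3 cells. The script for ratios was tested on simulated data.

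The genes named are all 31 members, ordered by role, and genes of the fixed pathway lists. Members and lists were chosen with earlier results of these data known. Of 97 pathway genes 81 were in the tables, and 1 is not reported here. The work used leidenalg 0.10.2 and igraph 0.11.9 for clustering, scikit-learn 1.9.0 for components and neighbours, and scipy 1.17.1 for intervals. Tables and plots were made with pandas 2.3.3, matplotlib 3.10.9 and numpy 2.4.6 under Python 3.11.15.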

Additional observations from a re-analysis of the deposited data

How the results depend on the processing

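No paired analysis was possible because each group was 1 library, and no replicate could be left out. Over 11 other settings of the counts, none of the 34 called ratios, among 51 of measured members, changed sign. With doublets kept, Irf9 (-0.85) and Igtp (-0.97) no longer reached 2-fold in endothelial-like cells, where 21 members were called lower, beside 23. With 1 CPM added, 5 members were called lower in microglia-like cells, and with coarser clusters or in male-derived cells 4, beside 2. With 5% of UMIs subtracted as free RNA, 0 members were called higher in oligodendrocyte-like and 1 in precursor-like cells, beside 2 and 3. In female-derived cells 0 members were called higher in oligodendrocyte-like and 1 lower in precursor-like cells. The centre of median-of-ratios scaling was -0.21 on the log2 scale in endothelial-like and -0.17 in precursor-like cells, and relative to it the calls of members were the same. The log2 ratio of the share with several members, 3 dpi over sham, was -0.94 in endothelial-like cells and went to -1.56 at 500 UMIs, -0.67 at 2000 UMIs, -0.0242 with no thinning, -0.34 for at least 2 members and -2.39 for at least 5. In microglia-like cells it was 1.46 and went to 0.84 at 2000 UMIs, 1.06 with no thinning and 0.81 for at least 2 members. The causes of these shifts were not tested, except that without thinning cells of unequal depth are compared. Depth limited the neutrophil-like and astrocyte-like shares, since many of their cells were under 1000 UMIs.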

Other observations

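Cells could be assigned to a sex by Xist and Y-linked UMIs, which gives values within each pooled library. In sham endothelial-like cells the core sum was 1883 CPM in 521 female-derived and 1079.8 CPM in 344 male-derived cells, and at 3 dpi it was 487 CPM in 120 and 295 CPM in 175 cells. In microglia-like cells it was 161 CPM in 863 female-derived and 106 CPM in 502 male-derived cells in sham, and 213 and 184 CPM at 3 dpi. In precursor-like cells it was 68.4 and 43.3 CPM in sham and 125 and 71.0 CPM at 3 dpi. Female-derived and male-derived oligodendrocyte-like cells gave 80.7 and 69.9 CPM in sham, and 68.4 and 87.1 CPM at 3 dpi, where the order was the other way. Animals of a sex were pooled, so there is no spread between mice, and the difference was not tested.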
